A study of Mus musculus with 24 samples.

Results

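The 10 circadian clock genes Arntl, Clock, Npas2, Per1, Per2, Per3, Cry1, Nr1d1, Dbp and Ciart were followed through the brain RNA of 24 mice. They were taken by gene name from a table of 54532 genes, and all 10 were found once and passed the filter on low values. The 4 groups of 6 mice were male wild-type C57Bl6 mice of 8 to 12 weeks. They carried an osmotic minipump under the skin for 2 weeks, filled with saline (vehicle) or with angiotensin II at 0.7 mg/kg/d, a peptide hormone that raises blood pressure. In the groups named vehicle + AEC and angiotensin II + AEC the mice also received 1000000 human amnion epithelial cells (AEC), cells of the membrane that surrounds the fetus, into a vein. Poly-A RNA of the brain hemispheres was sequenced, 1 library for each mouse. The hour at which each brain was collected was not given in the sources used here, so a difference between mice in the phase of their clock cannot be told apart from a difference in level.

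The circadian clock is a loop of transcription that runs in nearly every cell with a period of about a day. ARNTL (also called BMAL1) pairs with CLOCK or NPAS2 and switches on the Per and Cry genes at E-boxes, and the PER and CRY proteins return to the nucleus and shut the pair off. A second loop runs through NR1D1 (REV-ERB alpha), which represses Arntl, and the clock is read out by genes such as Dbp. Per1 and Per2 also respond within minutes to neuronal activity and hormones. In whole brain RNA the levels of many regions and cell types are summed, so fewer cells of a type and less RNA per cell cannot be told apart.

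Values are FPKM, the fragments counted on a gene scaled to the length of the gene and to the number of fragments in the library, as deposited by the authors. Recovered depth was between 16536449 and 25308700 fragments per mouse, and each member had between 180 and 3859 fragments in each mouse. The label brain was borne out by the markers of neurons (Snap25, mean of 288.4 FPKM), astrocytes (Gfap, 75.9 FPKM) and oligodendrocytes (Mbp, 521.4 FPKM). The suprachiasmatic nucleus is the seat of the master clock in the hypothalamus. Of the genes listed for it, Six6 (mean of 0.058 FPKM), Nms (0.126 FPKM) and Prok2 (0.156 FPKM) were near 0. Lhx1 (2.31 FPKM) was not, nor were Vip (5.70 FPKM) and Avp (32.2 FPKM), which other regions also express. The libraries fell into 2 sets that the labels do not name. In 6 libraries the FPKM values summed to between 338334.5 and 348596.7, and in the other 18 to between 277115.9 and 298300.6. Replicates 5 and 6 of vehicle and of angiotensin II + AEC made up 4 of the 6, with replicate 5 of angiotensin II and replicate 6 of vehicle + AEC. Mitochondrial transcripts had a share of 6.17% to 6.85% in the 6 libraries, against 4.79% to 5.75% in the others. Results are therefore given over all 24 mice and within the 18.

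The promoters of the members differ in the elements through which the clock acts, and those of Per1, Cry1, Per3 and Ciart are shown because the levels of these genes are compared between mice below. RefSeq (GRCm38.p6) lists transcription starts for Arntl, Clock, Npas2, Per1, Per3, Cry1, Nr1d1, Dbp and Ciart. Each window from 250 bases before to 50 bases after a start was searched on both strands for the E-box CACGTG, bound by ARNTL with CLOCK or NPAS2, its variant the E'-box CACGTT, the D-box TTATGNAA, bound by DBP, the core of the element bound by NR1D1 and the ROR factors (TAGGTCA or TGGGTCA), and the cyclic AMP response element TGACGTCA. These motifs do not overlap one another in the windows shown, whose capitals mark the motif, although neighbouring windows of Cry1 and of Ciart share bases.
Per1 E-box, chr11:69098771-69098800, plus strand: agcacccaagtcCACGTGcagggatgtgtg
Per1 D-box, chr11:69098914-69098943, plus strand: agggcctggcaTTATGCAAcccgcctccca
Cry1 E'-box, chr10:85185116-85185145, minus strand: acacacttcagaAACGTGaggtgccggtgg
Cry1 E-box, chr10:85185097-85185126, minus strand: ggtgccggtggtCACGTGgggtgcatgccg
Per3 upstream D-box, chr4:151044852-151044881, minus strand: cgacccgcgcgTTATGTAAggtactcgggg
Per3 downstream D-box, chr4:151044805-151044834, minus strand: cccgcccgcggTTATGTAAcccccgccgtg
Ciart upstream E-box, chr3:95882327-95882356, minus strand: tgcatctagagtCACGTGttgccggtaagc
Ciart middle E-box, chr3:95882269-95882298, minus strand: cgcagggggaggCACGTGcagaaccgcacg
Ciart downstream E-box, chr3:95882255-95882284, minus strand: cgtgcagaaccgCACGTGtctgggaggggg

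Counted from the start, the first base of the E-box stood at -166 in Per1, at -60 in Cry1, and at -116, -58 and -44 in Ciart. The Per1 start used was 3732 bases downstream of the deposited start of the gene. The D-box stood at -24 in Per1 and at -205 and -158 in Per3. An E'-box stood at -79 in Cry1 and at -28 in Nr1d1, and the second start of Arntl had the NR1D1 and ROR core at 31 bases after it. None of the windows of the members held the cyclic AMP response element. Over all 32851 promoter windows of the table, an E-box was found in 7.15%, an E'-box in 4.68%, a D-box in 3.38%, the NR1D1 and ROR core in 6.45% and the cyclic AMP response element in 1.79%. A match describes the letters and was not a measure of binding.

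Over the 24 mice, Nr1d1, the repressor of Arntl, had the highest level of the 10 with a mean of 37.8 FPKM, and its lowest mouse (31.0 FPKM) was above the highest mouse of every other member. Dbp, a transcription factor that binds D-boxes (20.7 FPKM), and Per1 (19.2 FPKM) followed, and their ranges overlapped. Cry1, a repressor of the ARNTL pair (8.39 FPKM), Ciart, which also represses it (6.35 FPKM), Per2 (6.12 FPKM) and Npas2 (5.33 FPKM) overlapped each other, as did Arntl (3.91 FPKM), Clock (3.61 FPKM) and Per3 (3.30 FPKM). Thra lies across Nr1d1 on the opposite strand at a mean of 141.6 FPKM, and Sphk2 lies across Dbp at 9.41 FPKM. The use of strand in the counting was not given in the sources used here. Reads in the stretch that Nr1d1 or Dbp shares with its neighbour therefore cannot be told apart from reads of that neighbour. On the same strand, Camta1 overlaps Per3 at 14.1 FPKM and the pseudogene Ube2n-ps1 overlaps Clock at 5.40 FPKM. Strand cannot separate reads in these shared stretches, and how shared reads were counted was not given. The same limit thus holds for the shared stretches of Per3 and Clock.

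**Figure D1:**
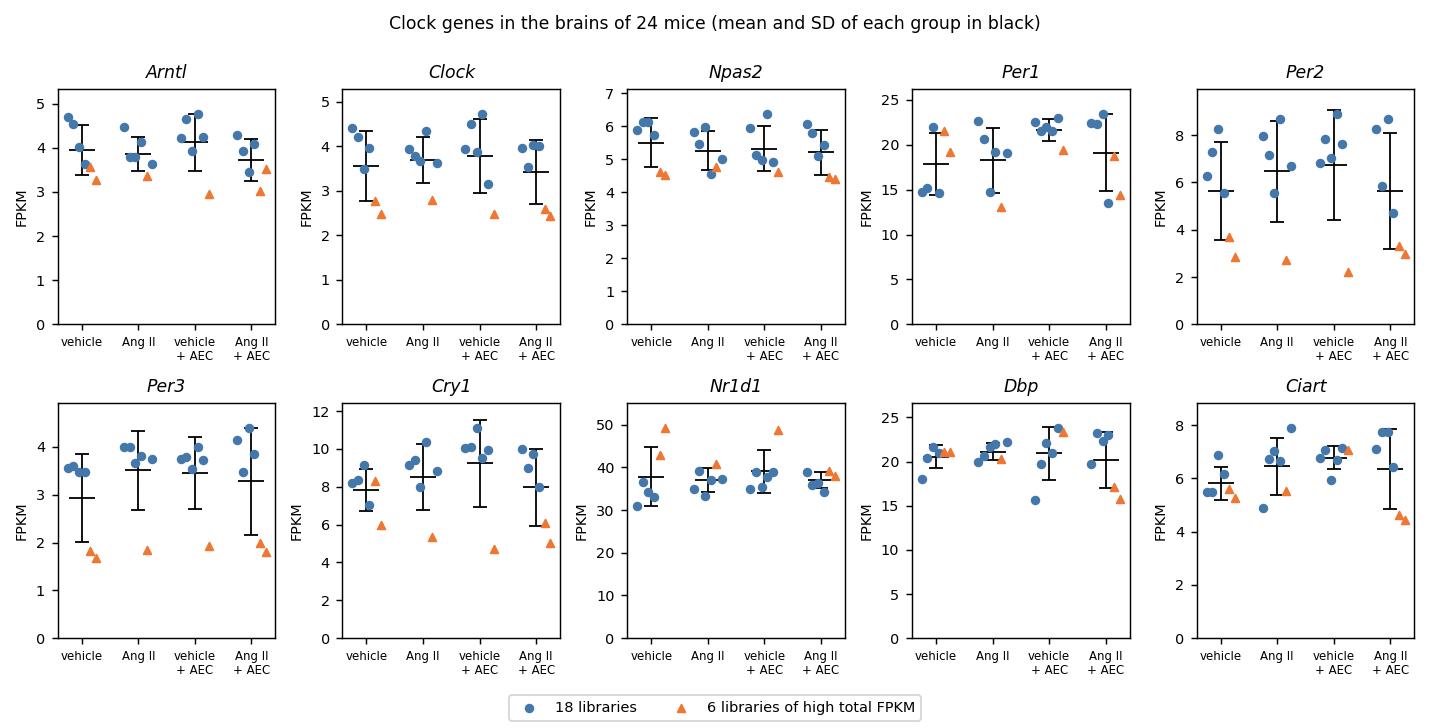
FPKM of the 10 clock genes in each of 24 mice, by group, with the group mean and SD (n = 6) in black; circles are the 18 libraries and triangles the 6 libraries of high total FPKM. The 6 triangles lie below all circles for Per2, Per3 and Clock, and the 4 groups overlap for every gene.

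The first question was whether angiotensin II changed the clock genes. Among the activators, Arntl had a mean of 3.86 ± 0.38 FPKM (SD) in the 6 angiotensin II mice against 3.95 ± 0.57 FPKM in the 6 vehicle mice, Clock of 3.69 ± 0.51 against 3.56 ± 0.79 FPKM, and Npas2 of 5.27 ± 0.58 against 5.51 ± 0.75 FPKM. The groups overlapped for each of these genes, which encode the activator pair. Among the repressors, the lowest, median and highest values of Per1 were 13.1, 19.2 and 22.7 FPKM with angiotensin II, and 14.7, 17.2 and 21.9 FPKM with vehicle. For Per2 they were 2.72, 6.92 and 8.68 FPKM with angiotensin II and 2.85, 5.92 and 8.26 FPKM with vehicle. For Per3 they were 1.85, 3.78 and 4.01 FPKM with angiotensin II and 1.68, 3.48 and 3.61 FPKM with vehicle. The groups overlapped for each Per gene. The lowest Per2 and Per3 values of both groups came from libraries of high total FPKM, whereas the lowest Per1 value of the vehicle mice, in replicate 4, did not.

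None of the 10 members changed with angiotensin II at an adjusted p-value under 0.05 in limma, or at an unadjusted p-value under 0.05. Of the 27286 genes in the fit, 604 passed the unadjusted threshold (2.21%) and 0 the adjusted one (0.0%), so a count of 0 among 10 is near the background. The member with the lowest p-value was Per3, with a log2 difference of 0.27 (SE 0.26, adjusted p = 0.994 in limma, exact permutation p = 0.184). The median log2 difference of the members was 0.06 and that of all genes tested 0.02. Within the 18 libraries, the angiotensin II mice had Per3 between 3.66 and 4.01 FPKM and the vehicle mice between 3.48 and 3.61 FPKM, which do not overlap. How many of all genes had no overlap between these mice was not counted. This Per3 difference was 0.12 on the log2 scale (exact permutation test of 5 against 4 mice, two-sided p = 0.0159, the smallest such a test can give), and its adjusted p was 1.0 in limma.

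The same held for the other comparisons in the fit over 24 mice. With angiotensin II + AEC against angiotensin II, none of the 10 members passed an unadjusted p-value of 0.05 (2.54% of all genes did) or an adjusted one (0.0% of all genes). Dbp had the lowest p-value there, at 20.2 ± 3.19 FPKM (SD, n = 6) with the cells and 21.1 ± 0.95 FPKM (SD, n = 6) without them, a log2 difference of -0.08 (SE 0.10, adjusted p = 1.0 in limma, exact permutation p = 0.455). Within the 18 libraries this Dbp difference had the opposite sign (0.05). With angiotensin II + AEC against vehicle + AEC, again none passed (2.66% of all genes at the unadjusted and 0.0% at the adjusted threshold), although the log2 differences of all 10 members were below 0, with a median of -0.13 (-0.01 over all genes tested). Within the 18 libraries 6 of the 10 were below 0, with a median of -0.04. The interaction of angiotensin II and AEC likewise called no member (2.54% and 0.0% of all genes), and the lowest p-value was that of Ciart, with a difference of log2 differences of -0.26 (SE 0.18, adjusted p = 0.931 in limma).

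**Figure D2:**
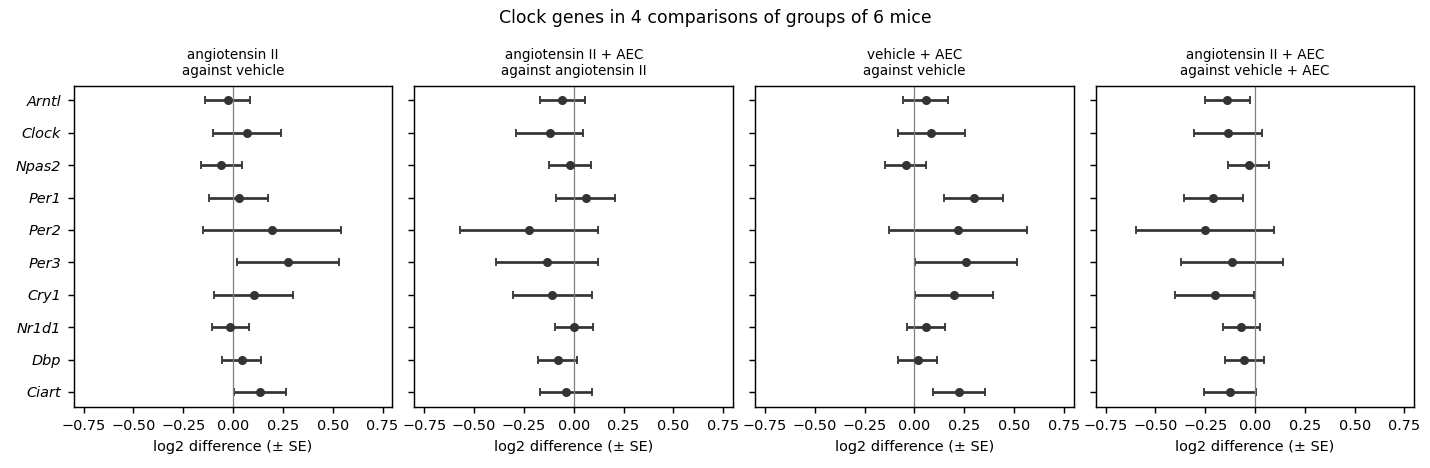
Log2 difference (± SE, limma over 24 mice) of each clock gene in 4 comparisons of groups of 6 mice, on a linear axis of log2 units. Per1 in vehicle + AEC against vehicle lies farthest from 0 relative to its SE, and no gene passed the adjusted threshold.

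The lowest p-value of any member lay in the comparison of the human cells with no cells in mice without angiotensin II. In vehicle + AEC against vehicle, none of the 10 members passed an unadjusted p-value of 0.05 in limma, against 658 of 27286 genes (2.41%), and none an adjusted one (0.0% of all genes). Per1, the period gene that responds fastest to stimuli, had 14.7, 15.2, 21.9, 14.7, 21.5 and 19.2 FPKM in vehicle mice 1 to 6. In the 6 vehicle + AEC mice its lowest, median and highest values were 19.41, 21.78 and 22.96 FPKM. The vehicle mice split into 3 low and 3 high ones, and none of the vehicle + AEC mice was as low as the lower 3, while the upper 3 overlapped the vehicle + AEC range. The log2 difference of Per1 was 0.30 (SE 0.15, p = 0.0581 and adjusted p = 0.995 in limma), and the exact permutation test over the 12 mice gave a two-sided p = 0.0303. Leaving out 1 mouse moved it between 0.24 and 0.36, and it passed the unadjusted threshold without vehicle replicate 3 (0.36), vehicle replicate 5 (0.35) or vehicle + AEC replicate 6 (0.33).

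Ciart, the repressor with 3 E-boxes in its promoter window, was at 6.78 ± 0.44 FPKM (SD, n = 6) in vehicle + AEC and 5.81 ± 0.60 FPKM (SD, n = 6) in vehicle mice, and 3 of the 6 vehicle + AEC mice were above all vehicle mice. Its log2 difference was 0.22 (SE 0.13, p = 0.102 and adjusted p = 0.995 in limma, exact permutation p = 0.0195). Within the 18 libraries the Ciart difference was 0.17 (exact permutation p = 0.127). Exact permutation p-values were not adjusted for the number of members and comparisons. Cry1 had a lowest, median and highest value of 4.71, 9.99 and 11.1 FPKM in vehicle + AEC and of 5.99, 8.24 and 9.13 FPKM in vehicle mice. In Cry1, 5 of the 6 vehicle + AEC mice were above all vehicle mice and the sixth, a library of high total FPKM, was below all of them. Within the 18 libraries, Cry1 was between 9.49 and 11.1 FPKM in 5 vehicle + AEC mice and between 7.02 and 9.13 FPKM in 4 vehicle mice, without overlap. How many of all genes had no overlap between these mice was not counted. The Cry1 difference within the 18 libraries was 0.31 on the log2 scale (SE 0.08, unadjusted p = 0.00149 and adjusted p = 0.968 in limma, exact permutation p = 0.0159). In the same 18 libraries Per1 differed by 0.43 (unadjusted p = 0.0118 in limma) and Nr1d1 by 0.14 (unadjusted p = 0.0193 in limma), with an adjusted p of 1.0 for both. Their exact permutation p-values were 0.0476 for Per1 and 0.0635 for Nr1d1, the latter above 0.05. The fit to 18 libraries thus gave 3 members past the unadjusted threshold (4.18% of all genes) where that to 24 gave 0, and the interaction gave 1 (4.2% of all genes), which was Cry1 (-0.31, unadjusted p = 0.0174 in limma).

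Larger differences lay between the 2 sets of libraries. This comparison was chosen after seeing the data and sets the 6 libraries against the 18 with the groups in the fit. Of the 10 members, 7 were lower in the 6 libraries at an adjusted p-value under 0.05 in limma, against 31.0% of all genes tested, and Nr1d1 was higher, against 22.3% of all genes. These shares include many low genes. In a fit to the 13649 genes with a mean of at least 1 FPKM, as all members have, 6002 were lower and 5280 higher at that threshold. The background for genes at the level of the members is therefore larger than the shares over all genes. Per2, a repressor that limits the activator pair, was between 2.21 and 3.70 FPKM in the 6 libraries and between 4.70 and 8.88 FPKM in the 18. Its log2 difference was -1.24 (SE 0.12, adjusted p = 6.2e-09 in limma). Per3, the third period gene, was between 1.68 and 1.99 FPKM in the 6 libraries and between 3.48 and 4.39 FPKM in the 18, a log2 difference of -0.99 (SE 0.04, adjusted p = 3.91e-15 in limma). Clock was between 2.45 and 2.80 FPKM in the 6 libraries and between 3.16 and 4.72 FPKM in the 18. Per2, Per3 and Clock thus did not overlap between the sets. The share of all genes without overlap was not counted, so this is a description and not a trait of clock genes.

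The other repressor of the same loop, Cry1, was lower by a log2 difference of -0.64 (SE 0.09), and one of the 6 libraries, vehicle replicate 5, lay within the range of the 18 at 8.28 FPKM. Clock differed by -0.58 (SE 0.07), Arntl by -0.32 (SE 0.06), Npas2 by -0.29 (SE 0.06) and Ciart by -0.28 (SE 0.09). Nr1d1 was higher by 0.27 (SE 0.05) in the 6 libraries, at 37.9 to 49.2 FPKM against 31.0 to 39.1 FPKM. Per1 and Dbp did not pass (log2 differences of -0.13, SE 0.12, and -0.08, SE 0.08, with adjusted p-values of 0.385 and 0.389 in limma). The median over the members was -0.30 and over all genes tested -0.07.

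Gene length moved with this difference over the whole table. Among 13649 genes with a mean of at least 1 FPKM, the median log2 difference was 0.46 for genes of 1000 to under 2000 bases, 0.16 up to 4000 bases, -0.20 up to 8000 bases and -0.50 for longer genes. Against genes of their own length class, Per2 (5856 bases) stood at percentile 1.4, Cry1 (3340 bases) at 4.7 and Per3 (9608 bases) at 7.9, whereas Clock (13727 bases) stood at 40.7 and Arntl (7523 bases) at 41.0. When each mouse was centred along gene length, 6 members were lower (background of 35.9% of all genes) and Nr1d1 higher (21.3% of all genes). Per2, Per3, Cry1, Npas2 and Ciart were lower with and without this centring, Dbp only with it. Per2 then differed by -1.02, Cry1 by -0.69, Ciart by -0.58, Per3 by -0.54, Dbp by -0.23, Npas2 by -0.19 and Nr1d1 by 0.16. Clock was at -0.01 and did not pass, and Arntl (0.06) and Per1 (0.06) changed sign. Marker genes of other cell types also moved with the sets, not all of a type in 1 direction. The 5 choroid plexus genes summed to between 838.6 and 1124 FPKM in the 6 libraries and 354.9 and 772.2 FPKM in the 18, the 4 endothelial genes to between 106.4 and 128.3 FPKM and 64.6 and 89.0 FPKM, and the 4 neuronal genes to between 717.7 and 762.6 FPKM and 639.3 and 703.9 FPKM. Of the choroid plexus genes 4 were higher in the 6 libraries, among them Ttr (log2 difference 0.71), and Kl was lower (-0.56). Of the endothelial genes Cldn5 (0.76) and Ly6c1 (0.59) were higher, while Pecam1 and Flt1 (both -0.06) did not pass. Of the neuronal genes Rbfox3 (0.50) and Tubb3 (0.55) were higher, and Snap25 (-0.19) and Syt1 (-0.33) lower. All 5 erythroid genes were higher, from Alas2 (0.91) to Hba-a2 (1.38), and summed to between 122.9 and 204.2 FPKM against 32.9 and 189.5 FPKM, which overlap. Of the 4 oligodendrocyte genes 3 were higher, and of the 6 glucocorticoid targets 5 were lower and 1 higher. Astrocytes and microglia had 2 higher and 2 lower of 4 genes each, the pituitary 1 lower of 5, the suprachiasmatic nucleus 1 higher and 1 lower of 6, and the immediate early genes 2 higher of 8. The part of these genes and cell types in the result was not tested. Both sets held mice of all 4 groups, with 2 vehicle, 1 angiotensin II, 1 vehicle + AEC and 2 angiotensin II + AEC mice in the smaller one.

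**Figure D3:**
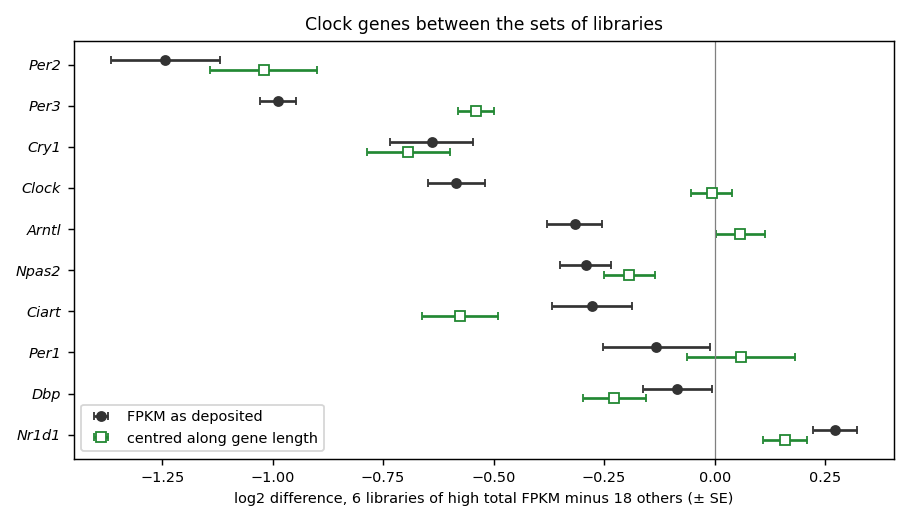
Log2 difference (± SE, limma) of each clock gene between 6 libraries of high total FPKM and 18 others, for FPKM as deposited (filled) and after centring each mouse along gene length (open). Per2, Per3 and Cry1 stay below 0 on both scales, and Clock and Arntl move to about 0 on the centred one.

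The spread within groups followed the same division. The residual SD of Per2 on the log2 scale was 0.64 in the fit with the 4 groups and 0.27 once the set was added to it. Per3 fell from 0.47 to 0.08. Per1 stayed at 0.27 in both fits and Dbp at 0.17, so the spread of these genes lay within the sets.

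Clock genes are known to keep fixed phases to one another, and the next question was whether the 10 members varied together from mouse to mouse. Because the libraries fell into sets, the 45 pairs were examined within the 18 libraries, as deviations from the group means. At an adjusted p-value under 0.05 over the 45 pairs, 4 passed, each with a positive correlation, and 2 of these hold Per1, which is treated apart below. Per2 and Cry1 had a Pearson r of 0.76 (permutation p = 0.00032, adjusted p = 0.00742) and a Spearman rho of 0.68 (permutation p = 0.00252, adjusted p = 0.0567). Without the 2 mice farthest from the median of Per2, r was 0.70 (adjusted p = 0.126), so r changed little but the pair no longer passed with fewer mice. Per2 and Per3 had an r of 0.64 (permutation p = 0.00318, adjusted p = 0.0358) and a rho of 0.74 (permutation p = 0.0005, adjusted p = 0.0225), with an r of 0.60 (adjusted p = 0.157) without the 2 farthest mice.

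Of the 18 pairs of Arntl, Clock or Npas2 with a member other than Per1 outside this trio, none passed, and their r ranged from -0.53 to 0.44, with 10 below 0. Arntl and Ciart had an r of -0.53 (permutation p = 0.0218, adjusted p = 0.164) and Npas2 and Dbp of -0.44 (permutation p = 0.0625, adjusted p = 0.332). Arntl and Clock, which act as a pair, had an r of 0.50 (permutation p = 0.033, adjusted p = 0.212).

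Per1 was divided into 2 clusters at the widest gap between its sorted values. Every gene has a widest gap, and that of Per1 was not tested against those of other genes. Sorted by level, 7 of the 24 mice had Per1 between 13.1 and 15.2 FPKM and the other 17 between 18.7 and 23.4 FPKM, with no mouse between. Of the 18 libraries, 5 were below the gap (vehicle replicates 1, 2 and 4, angiotensin II replicate 3 and angiotensin II + AEC replicate 4) and 13 above it. By group, 3 vehicle, 2 angiotensin II, 0 vehicle + AEC and 2 angiotensin II + AEC mice of the 24 were below. In the 18 libraries, Cry1 did not overlap across the gap either: it was between 7.02 and 8.37 FPKM in the 5 and between 8.84 and 11.1 FPKM in the 13. Per2 was between 4.70 and 7.27 FPKM in the 5 and between 5.84 and 8.88 FPKM in the 13, and Nr1d1 between 31.0 and 36.5 FPKM and between 34.2 and 39.1 FPKM, with overlap. Arntl, Clock, Npas2, Per3, Dbp and Ciart overlapped widely. In the libraries of high total FPKM, Cry1 did overlap, at 5.02 to 5.32 FPKM in the 2 mice below the gap and 4.71 to 8.28 FPKM in the 4 above it. Per2 overlapped there too, at 2.72 to 2.95 FPKM and 2.21 to 3.70 FPKM. These values are a description, since the mice were divided by Per1 itself and the share of all genes without overlap was not counted.

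Several immediate early genes, which neurons switch on within minutes of activity, were divided at the same gap. Junb, a transcription factor of this class, was between 11.7 and 15.3 FPKM in the 5 mice with low Per1 and between 18.8 and 28.1 FPKM in the 13 others. Fos, its partner, was between 3.81 and 5.53 FPKM in the 5 and between 7.24 and 12.9 FPKM in the 13. Arc, which acts at synapses, was between 14.9 and 29.2 FPKM in the 5 and between 38.2 and 65.3 FPKM in the 13. The ranges of Junb, Fos, Arc, Egr2 and Nr4a1 did not overlap, and those of Egr1, Fosb and Npas4 did. The share of all genes without overlap at this gap was not counted, so these ranges are a description. The 8 genes summed to between 76.5 and 118.7 FPKM in the 5 and between 140.7 and 202.3 FPKM in the 13, and none of the 8 was at 0 in any mouse. In the 6 libraries of high total FPKM, Junb was between 16.1 and 22.2 FPKM in the 2 mice with low Per1 and between 32.1 and 39.5 FPKM in the other 4. The same division of Per1 and Junb was thus present in both sets of libraries, at different levels of Junb. In the 6 libraries Fos, Arc and Nr4a1 also did not overlap across the gap, whereas Egr1, Egr2, Fosb and Npas4 did.

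Within the 13 mice above the gap, Per1 and Junb had an r of 0.77 (permutation p = 0.00184, adjusted p = 0.129 over 140 relations of 10 members with 8 immediate early genes and 6 glucocorticoid targets) and a rho of 0.59 (permutation p = 0.0371). Without the 2 mice farthest from the median of Per1 the r was 0.64. None of the 140 relations passed the adjusted threshold within these mice, and Per1 and Per2 (r of 0.10, permutation p = 0.745) or Per1 and Cry1 (r of -0.12, permutation p = 0.698) showed no relation there that stood out from the permutations. Because these mice were chosen by their Per1 level, the range of Per1 was narrowed. A low r within them therefore cannot show that the genes are unrelated. No correlation of Per1 is given over both clusters. The 18 mice behind the other member pairs hold both clusters, so those pairs were also taken within the 13 mice. There 1 of the 45 member pairs passed, that of Per2 and Per3 (r of 0.82, permutation p = 0.00066, adjusted p = 0.0297), whereas Per2 and Cry1 had an r of 0.34 (permutation p = 0.256, adjusted p = 0.728). The choice of mice also narrowed the range of Cry1, to between 8.84 and 11.1 FPKM, so the lower r of Per2 and Cry1 cannot be read as a lost relation. Depth was alike on both sides of the gap, with 17614040 to 19672007 fragments below it and 16645396 to 22464979 above, and mitochondrial transcripts took 5.29% to 5.75% and 4.79% to 5.62%.

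**Figure D4:**
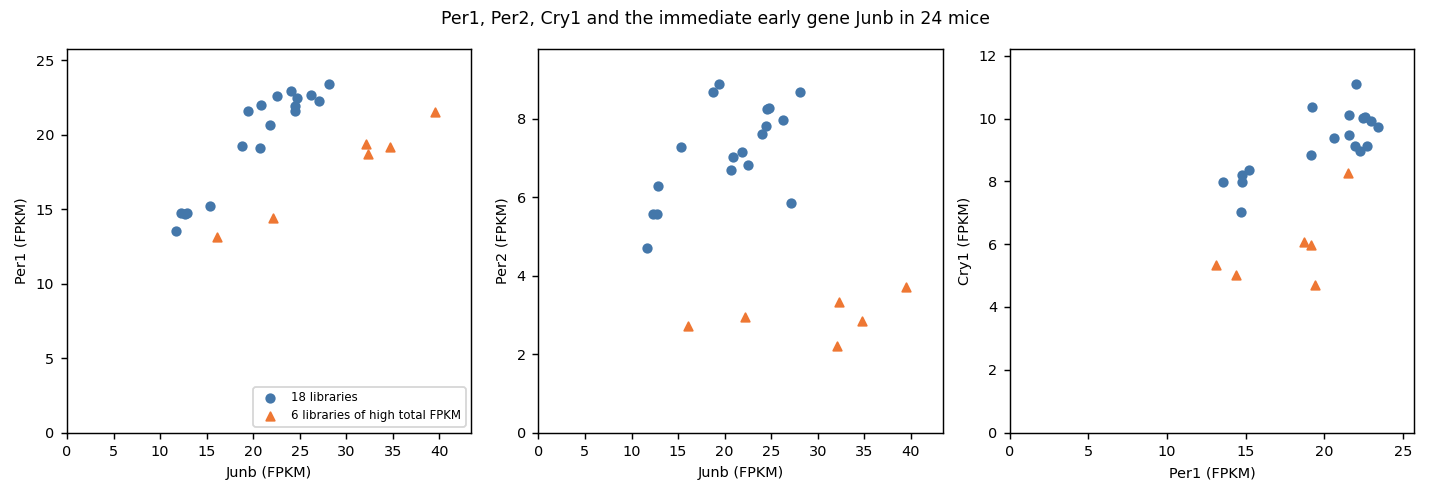
FPKM of Per1 against Junb, Per2 against Junb and Cry1 against Per1 in 24 mice, on linear axes; circles are the 18 libraries and triangles the 6 libraries of high total FPKM. Per1 leaves a gap between 15.2 and 18.7 FPKM, the mice below it have the lowest Junb of their set, and the sets are offset from each other.

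The 8 immediate early genes were also set beside the Per1 difference of vehicle + AEC and vehicle mice. They summed to between 146.7 and 187.9 FPKM in the vehicle + AEC mice, inside the range of 87.7 to 242.4 FPKM of the vehicle mice. Over all mice of the groups 6 of the 8 had log2 differences above 0, with a median of 0.20. None of the 8 had an unadjusted p-value under 0.05 in that comparison. Within the 18 libraries all 8 had log2 differences above 0, with a median of 0.49, and the lowest unadjusted p-value was that of Egr2 (0.71, SE 0.35, adjusted p = 1.0 in limma). Their part in the Per1 and Cry1 differences was not tested.

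**Figure D5:**
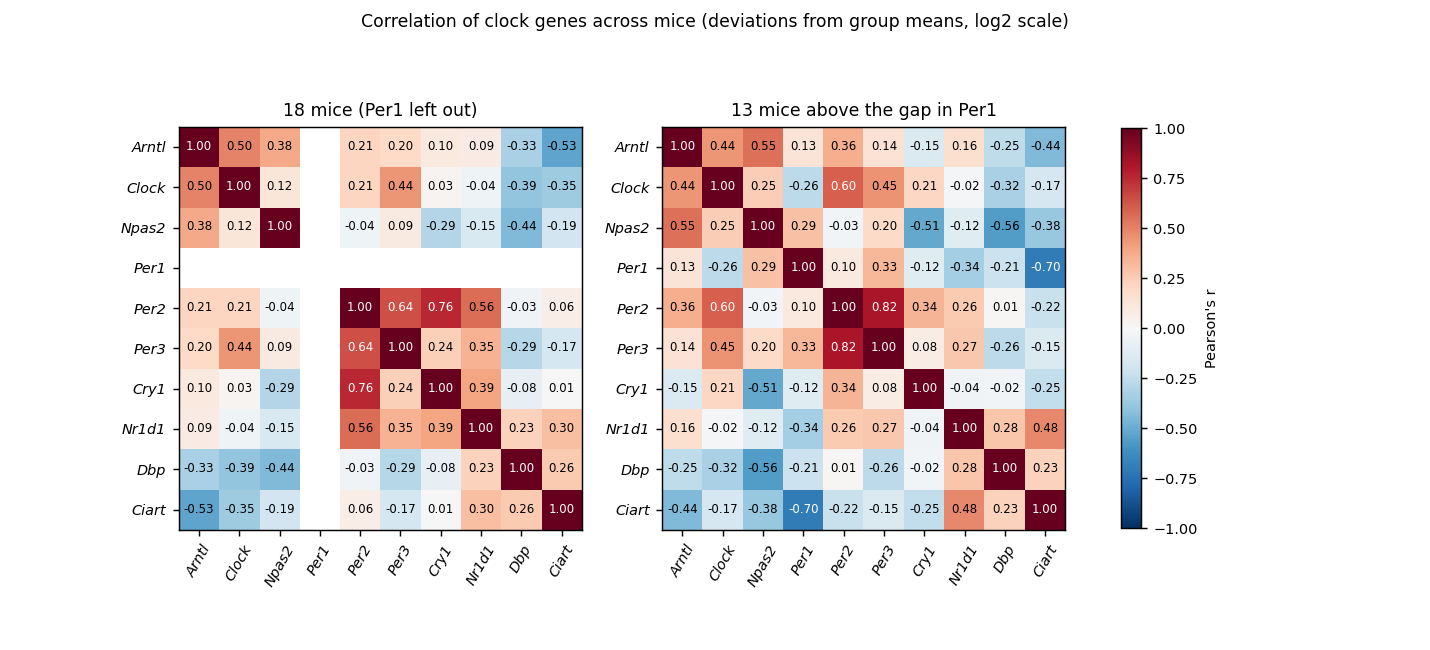
Pearson's r between clock genes across mice, as deviations from group means of log2(FPKM + 0.1), over 18 libraries (left, Per1 left out because it was divided into 2 clusters) and over the 13 of them above the gap in Per1 (right). Per2 and Per3 have an r of 0.64 on the left and 0.82 on the right, and Per2 and Cry1 of 0.76 on the left and 0.34 on the right.

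Glucocorticoid targets, which respond to the stress hormone corticosterone as Per1 also can, did not divide with Per1. The 6 genes summed to between 44.6 and 49.5 FPKM in the 5 mice with low Per1 and to between 41.6 and 85.9 FPKM in the 13 others. Over the 18 libraries 20 of the 140 relations passed an adjusted p-value of 0.05. The 18 positive ones were of Per1, Per2 or Cry1 with immediate early genes, over mice that hold both clusters of Per1. The other 2 were of glucocorticoid targets with Dbp, and their adjusted p-values depend in part on the rank of those 18. Zbtb16 had an r of -0.66 with Dbp (permutation p = 0.0054, adjusted p = 0.0398) and a rho of -0.47 (permutation p = 0.0489). Without the 2 mice farthest from the median of Dbp the r was -0.53. Within the 13 mice above the gap neither target passed. There Zbtb16 had an r of -0.83 with Dbp (permutation p = 0.00121, adjusted p = 0.129) and Cdkn1a of -0.70 (permutation p = 0.016, adjusted p = 0.224). Cdkn1a had an r of -0.67 with Dbp (permutation p = 0.00375, adjusted p = 0.0292) and a rho of -0.36 (permutation p = 0.148), and its r of -0.28 without 2 mice shows that it rested on them.

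A list of 20 further clock genes gave the same picture for the treatments in the fit over 24 mice. Their comparisons within the 18 libraries are not reported here. None of the 20 passed an unadjusted p-value of 0.05 in any of the 4 comparisons of groups or the interaction over 24 mice. For angiotensin II against vehicle the lowest p-values were those of Cry2, the second cryptochrome (log2 difference of 0.05, SE 0.04), Csnk1e, a kinase that marks PER proteins for breakdown (0.04, SE 0.04), and Wee1, a cell cycle kinase under clock control (0.17, SE 0.17), with an adjusted p of 0.994 in limma for each. With angiotensin II + AEC against angiotensin II they were those of Bhlhe41, a repressor at E-boxes (-0.20, SE 0.10), Csnk1e (-0.08, SE 0.04) and Wee1 (-0.26, SE 0.17), each with an adjusted p of 1.0. With vehicle + AEC against vehicle they were those of Timeless (-0.19, SE 0.10), Usp2, a deubiquitinase (0.07, SE 0.04), and Cry2 (0.05, SE 0.04), each with an adjusted p of 0.995.

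The same list in angiotensin II + AEC against vehicle + AEC had its lowest p-values in Timeless (0.16, SE 0.10), Bhlhe41 (-0.16, SE 0.10) and Bhlhe40, a repressor like Bhlhe41 (-0.16, SE 0.16), each with an adjusted p of 1.0 in limma. For the interaction they were those of Bhlhe41 (-0.23, SE 0.14), Cry2 (-0.07, SE 0.06) and Bhlhe40 (-0.28, SE 0.23), each with an adjusted p of 0.931. Between the sets of libraries 13 of the 20 were lower and 1 higher at an adjusted p-value under 0.05 in limma, beside 31.0% and 22.3% of all genes. Of the 13649 genes with a mean of at least 1 FPKM, 6002 were lower and 5280 higher. The lowest p-values were those of Hlf (-0.60) and Tef (-0.56), the relatives of Dbp that bind the same D-box, and Bhlhe40 (-0.57). Dbp itself, at -0.08, did not pass on this scale but did after length centring. Against genes of their own length class, Hlf stood at percentile 17.5, Tef at 21.4 and Dbp at 30.5.

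The genes whose deviations were most like those of Dbp over the 24 mice, among genes with a mean of at least 1 FPKM outside these lists, were Chrna1os (r of 0.72), Slc35d3 (0.66), Gm44483 (0.65), Lypd1 (0.63), Ndor1 (0.62) and Nme7 (0.62). Over the 18 libraries their r with Dbp was between 0.32 and 0.78. The genes most like Arntl were Chuk (0.90), Tmem168 (0.89), Pdik1l (0.89), 9330159F19Rik (0.88), Gm8991 (0.88) and Usp38 (0.88), with r between 0.62 and 0.80 over the 18 libraries. These genes were picked for the likeness, so the values are a description and share the difference between the sets of libraries.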

How the data were processed

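Brain RNA of 24 mice was analysed from 1 table of FPKM values deposited by the authors, with 1 column for each mouse, mapped to its sample by title. According to the methods, reads were mapped to the Ensembl mouse genome and tested with DESeq (1.10.1 per the submitters' processing notes, which also name GRCm38). How reads were aligned, counted and assigned to a strand is not given in the sources used here. FPKM multiplied by gene length came out as whole multiples of 1 fragment for 100.0% of values in every mouse (tolerance 0.001), which gave the depth of each library.

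Genes above 0 in at least 6 of 24 mice were tested with limma 3.58.1 (R 4.3.3) on log2(FPKM + 0.1), with 4 groups in 1 fit, eBayes with a trend, and Benjamini-Hochberg adjustment over all 27286 genes. Fold changes on this scale understate low genes. Single genes were tested with two-sided exact permutation tests, and correlations with 100000 permutations. The labels number the samples of a group and say no more of them, so p-values measure the spread between these samples. Length centring subtracted from each mouse the median log2 deviation of genes of like length, interpolated between length bins; this alternative was chosen after seeing the data. Members and lists were chosen with earlier results of these data known, and no pattern here is independent support. All 10 members are named, as are, for each comparison, 3 further clock genes of lowest p-value, and the 6 genes most like Dbp and Arntl. Markers of other cell types are given beside the difference between sets of libraries, where most of them moved. Scripts were tested on simulated data. Permutations used numpy 2.4.6 and scipy 1.17.1 under Python 3.11.15, with pandas 2.3.3 for tables and matplotlib 3.10.9 for plots.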

Additional observations from a re-analysis of the deposited data

Results flagged for a closer look

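In 7 of the 40 combinations of a clock gene and a group of 6 mice, 1 mouse stood far from the others, with a gap to its nearest neighbour above the 95% critical value of Dixon's test for 6 values. Chance gives about 1 in 20 such combinations. Vehicle + AEC replicate 6 accounted for 4 of them: Per2 at 2.21 FPKM, Per3 at 1.93 FPKM, Cry1 at 4.71 FPKM and Nr1d1 at 48.7 FPKM. This mouse is the only library of high total FPKM in its group. Angiotensin II replicate 5, also the only such library in its group, had Per3 at 1.85 FPKM. The remaining 2 were Dbp at 18.02 FPKM in vehicle replicate 1 and Ciart at 5.95 FPKM in vehicle + AEC replicate 3, both libraries of the set of 18. For none of the 10 members did the interaction pass an adjusted p-value of 0.05 in limma.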

How the results depend on the processing

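The count of 0 members past an unadjusted p-value of 0.05 was the same in the 5 comparisons with a pseudocount of 1 or 0.01, without the filter, with genes of a mean FPKM of at least 1, after rescaling by median ratios, with voom on recovered reads, and after length centring. It was 1 (Per3) for angiotensin II against vehicle with the library set in the fit. For vehicle + AEC against vehicle it was 2 (Per1 and Ciart) with only the compared groups, 2 (Per1 and Cry1) with array weights and 3 within the 18 libraries, and it ranged from 0 to 2 when 1 mouse was left out: 1 (Per1) without vehicle replicate 3 or without vehicle replicate 5, and 2 (Per1 and Cry1) without vehicle + AEC replicate 6. For angiotensin II + AEC against vehicle + AEC it ranged from 0 to 2 (Arntl and Cry1, without vehicle + AEC replicate 6). For the interaction it was 1 (Cry1) within the 18 libraries, and 0 to 1 with a mouse left out. In the other 2 comparisons leaving out a mouse gave 0. The replicate numbers were not taken to pair the mice: the labels name nothing that same-numbered mice share, and in each of the 4 comparisons of 2 groups 4 or 5 of the 6 pairs, not all, had deviations correlated above 0.1. Of all 36 same-numbered pairs 77.8% did, against 48.9% of 180 pairs of different numbers. Among mice of the 18 libraries these were 91.7% and 83.5%. Of the 24 mice 7 were most like one of their own number. The replicate block gave 0 members in each comparison. The Dbp difference of angiotensin II + AEC against angiotensin II reversed with array weights (0.0258) and within the 18 libraries (0.0494).

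Between the sets of libraries, 7 to 8 members passed under all alternatives run, and Per2, Per3, Cry1, Npas2 and Nr1d1 passed in each. With length centring Arntl (0.0579) and Per1 (0.0594) reversed. Of the 45 pairs of members, 27 passed an adjusted p-value of 0.05 over all 24 mice together, where the sets of libraries are mixed, and 21 to 28 with a mouse or 2 mice left out. The count was 8 with length centring, 4 as deviations from group and set means, 3 within the 18 libraries, 4 there as deviations from group means, 1 by Spearman's rho of these, 3 with length centring of these, and 0 without the 2 farthest mice. The cause of these moves was not tested. With 6 mice a group, no exact permutation p can fall below 0.00216.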
